A study of Mus musculus with 59 samples.

Results

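The mitochondrial ribosomal protein genes are the nuclear genes that encode the protein components of the ribosome inside mitochondria. They were taken as every gene of the deposited gene table whose symbol is Mrpl or Mrps followed by a number and at most 1 letter from a to c, without named pseudogenes. The rule found 78 of 55421 genes, 49 named Mrpl for the large subunit and 29 named Mrps for the small subunit. It used the symbols and no measured value. Their RNA was measured by RNA sequencing of 59 mammary tumors of mice. The animals were B6.FVB-Tg(MMTV-PyVT)634Mul/LellJ mice, and all are labelled PyMT (+/-), so every group carries the polyomavirus middle T oncogene, which the promoter of mouse mammary tumor virus drives mainly in mammary epithelium. The groups differ in treatment. Vehicle was given in 19 cases, methylparaben in 20 and propylparaben in 20. The parabens are esters of para-hydroxybenzoic acid with a methyl and a propyl group, used as preservatives. No source used here gives the dose, the length of exposure or the age of the animals. The labels number the tumors and do not say whether each stands for an animal of its own. The p-values rest on the spread between these samples, which may be partly technical, and treat the samples as independent. If some tumors shared an animal, the p-values could be too small.

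Mitochondria keep a small genome that encodes core subunits of the respiratory chain and of ATP synthase, and the mitochondrial ribosome (mitoribosome) makes all proteins encoded there. Its RNAs come from mitochondrial DNA, while its proteins are encoded in the nucleus, made in the cytosol and imported. Cells that grow and divide need both this machinery and the cytosolic one. The genes are expressed in every tissue that has mitochondria.

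The members lie on 17 chromosomes. Promoter sequence is shown first, and a link with how the members vary together among tumors (below) was not tested. RefSeq promoter windows (GRCm38.p6) were found for 69 of the 78 members. Exact matches were counted on both strands of the 250 bases before the start. The 7 letters CCGGAAG, read by ETS factors such as GABP, a known activator of nuclear genes for mitochondrial proteins, occurred in 17 of 69 members (24.6%) and in 13.4% of the 10604 tested genes with a window. The letters GCATGCGC, the core of the palindrome read by nuclear respiratory factor 1 (NRF1), occurred in 8 members (11.6%) and 4.35% of tested genes. The letters AAGATGGC, read by YY1, occurred in 4 members (5.80%) and 1.96% of tested genes. The CCAAT letters (36.2% and 36.4%), the E-box CACGTG (7.25% and 8.28%) and the TATAAA letters (5.80% and 6.82%) had similar shares in both sets. A match is a description of letters and no evidence of binding. Below are the last 150 bases before the start of 4 members: Mrps18a, which differed between groups, Mrpl17 and Mrpl20, which followed the other members most closely among those with a window, and Mrps12, which had the highest level per length. Capitals mark, in this order, the ETS letters, the NRF1 letters (reverse strand), the E-box and 3 CCAAT boxes.
Mrps18a (chr17:46110854-46111003, plus strand): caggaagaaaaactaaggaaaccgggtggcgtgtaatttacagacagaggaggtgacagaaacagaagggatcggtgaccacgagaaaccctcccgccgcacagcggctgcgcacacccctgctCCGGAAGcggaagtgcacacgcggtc
Mrpl17 (chr7:105811088-105811237, minus strand): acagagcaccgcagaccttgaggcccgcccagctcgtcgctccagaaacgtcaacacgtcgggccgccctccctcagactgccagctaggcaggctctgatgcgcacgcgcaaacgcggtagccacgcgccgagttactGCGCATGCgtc
Mrpl20 (chr4:155802728-155802877, plus strand): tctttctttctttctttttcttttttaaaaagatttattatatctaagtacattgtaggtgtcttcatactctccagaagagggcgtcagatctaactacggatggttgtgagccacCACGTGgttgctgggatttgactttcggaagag
Mrps12 (chr7:28741822-28741971, minus strand): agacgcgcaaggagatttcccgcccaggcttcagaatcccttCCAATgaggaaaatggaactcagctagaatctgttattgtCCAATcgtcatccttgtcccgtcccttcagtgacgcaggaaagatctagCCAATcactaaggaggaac

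Many members start next to another gene. In GENCODE M21, 18 of 78 members (23.1%) had a protein-coding gene on the other strand that started within 1000 bases upstream without overlap, against 6.77% of all 22028 protein-coding genes. Unlike the background for the motifs, this one was not limited to tested genes, while most members were tested. Mrpl40 starts 175 bases from Hira, a histone chaperone gene, and Mrps12 starts 172 bases from Sars2, the mitochondrial seryl-tRNA synthetase. Across the 59 tumors, with group means removed, the correlation of members with such neighbors had a median of r = 0.23 over the 16 pairs that could be measured, and 13 of 16 were above 0. The range ran from Mrpl2 and Klc4 (r = -0.26) to Mrpl51 and Ncapd2, a condensin subunit (r = 0.44). These correlations share libraries and depth and are given as a description, without a value for neighbors of other genes.

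Levels are normalized counts, that is CPM after the authors' scaling. Of the 78 members, 75 had a mean of at least 1 and were tested (48 Mrpl, 27 Mrps), and 74 were detected in every library. Levels of different genes were compared per kilobase of exon. The source does not say whether reads cover whole transcripts, and a per-length level holds only if they do. The highest level per kilobase was that of Mrps12, at 73.0, a protein next to the decoding site of the small subunit. Mrps6 (58.7), Mrpl34 (45.2) and Mrpl12 (41.7), which belongs to the factor-binding stalk of the large subunit, came next. The median member stood at 9.60, with 9.63 for Mrpl and 7.73 for Mrps genes. Ranges of these 4 genes over libraries overlapped with those of their neighbors in the order.

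**Figure D1:**
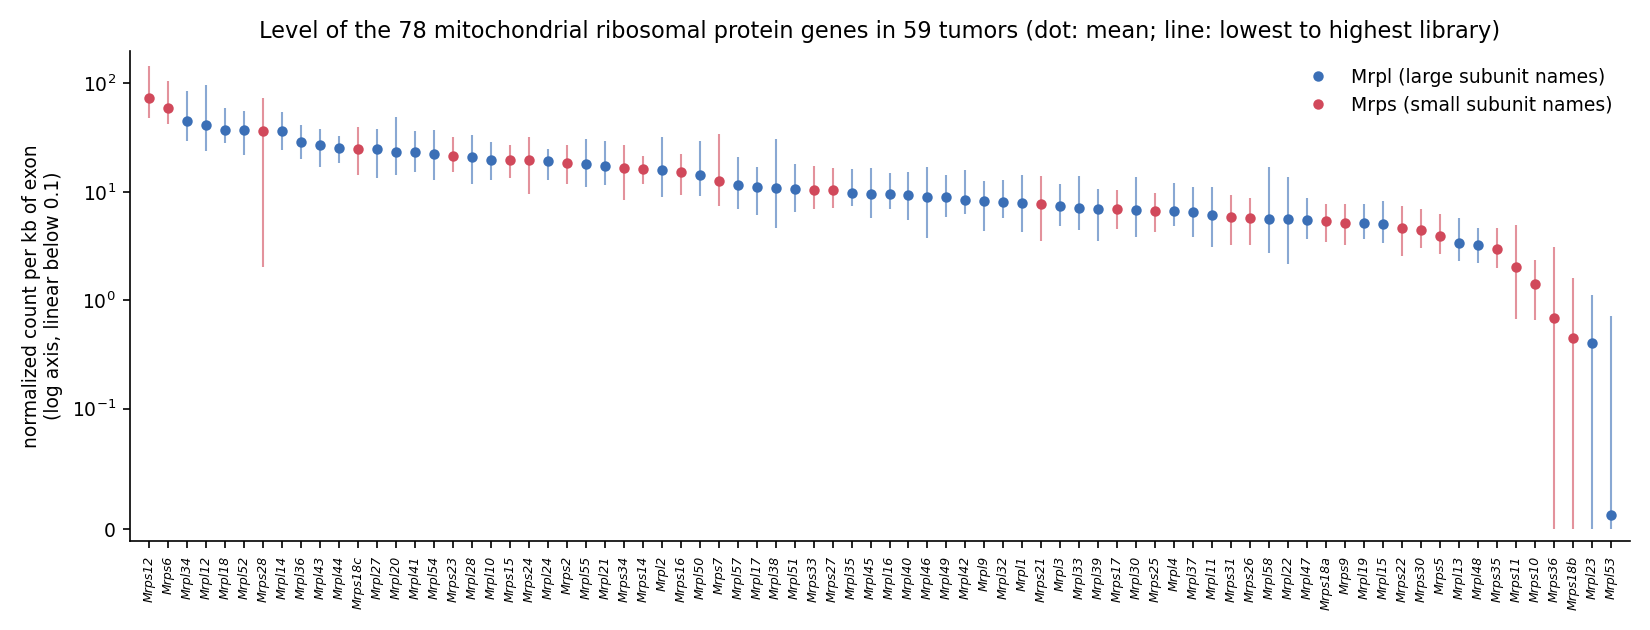
Level per kilobase of exon (log axis, linear below 0.1) of the 78 genes, from highest to lowest, where dots are means over 59 tumors and lines run from the lowest to the highest library. Most genes lie between 3 and 60, Mrps28 has a long lower line, and 4 genes at the right end reach 0.

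The lowest 4 members per kilobase were Mrps36 (0.689), Mrps18b (0.451), Mrpl23 (0.400) and Mrpl53 (0.0121). Mrpl53 was read once in all 59 libraries together, and 88.0% of its exon bases are also exon of Gm42688 on the same strand, so that reads there could be ambiguous. For Mrps18b, which had a mean of 0.943, 30.5% of exon bases are shared with Gm16279 on the opposite strand. Mrps36 had a mean of 0.877. Its protein is now placed in the 2-oxoglutarate dehydrogenase complex. Mrps36 and Mrpl23 have named pseudogenes with which reads could be shared, so both levels are uncertain. In the intron table, which was scaled separately, the mean was 9.77 for Mrps36, 5.82 for Mrpl23 and 2.56 for Mrps18b. Mrpl53, Mrps18b and Mrps36 lay under the minimum and were not tested. Other genes with much shared exon had common levels. Mrps34 shares 77.8% of its exon bases with 2 genes, 63.4% on the opposite strand and 36.97% on the same strand, and had a mean of 34.2, and Mrps25 shares 69.8% with Nr2c2 and had a mean of 43.9.

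Depth and composition of the libraries bear on all comparisons. Reads on genes ran from 1166502 to 2032789 per library (median 1594892), and the member with the fewest reads among those named below with a test, Mrpl23, had 270 in all. Markers of epithelium were present in every library, with a summed level of 8 genes between 1274 and 2429, and those of T cells were low (4 of 6 tested, with medians of 10.1, 9.70 and 9.64 in the 3 groups). The summed level of 12 fibroblast markers had medians of 1674 in vehicle, 2470 in methylparaben and 2683 in propylparaben tumors. In the same order, 9 adipocyte markers had medians of 147, 445 and 225, and 9 skeletal muscle markers had medians of 12.1, 243 and 158. In bulk tumor RNA, fewer cells of a type and less RNA per cell cannot be told apart. One library stood apart: methylparaben replicate 5 had the highest summed adipocyte (10146), skeletal muscle (8315) and brown fat (1821) markers of all. Its score of nuclear respiratory chain genes was 7.61, against medians near 6.2 in the 3 groups. A further 7 libraries had the smallest values on principal component 1 of all genes, namely vehicle replicates 7, 8, 10, 13, 14 and 19 and propylparaben replicate 1. They are called the 7 low-component libraries. The sign of the component was set so that its low end had a high mitosis score, the mean log2 level of 20 mitosis genes. The 7 libraries had mitosis scores from 5.67 to 6.33, against medians of 5.33, 4.91 and 5.05 in vehicle, methylparaben and propylparaben tumors.

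Tumors of methylparaben-treated mice had slightly less RNA of most mitoribosomal protein genes than vehicle tumors. The median log2 difference of the 75 members was -0.11, while that of all 14487 genes tested was 0.0053, and 65 of 75 members lay below 0 (48.8% of all genes did). By limma on log2(value + 1) with Benjamini-Hochberg adjustment over all genes, 2 members passed at an adjusted p under 0.05, both lower (1.32% of all genes passed in either direction and 0.635% downward). At an unadjusted p under 0.05, 19 members were lower (10.3% of all genes were) and 0 were higher. Mrpl genes had a median of -0.11 (42 of 48 below 0) and Mrps genes of -0.10 (23 of 27 below 0).

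Mrpl40 (ENSMUSG00000022706, GRCm38 chromosome 16, 18872018 to 18876862, minus strand) encodes a protein of the large subunit. Its level ran from 14.8 to 26.7 in vehicle tumors (median 17.9), from 9.74 to 19.9 in methylparaben tumors (median 14.8) and from 11.02 to 22.6 in propylparaben tumors (median 15.9). The groups overlapped, and 16 of 20 methylparaben tumors lay below the vehicle median. Mrpl40 fell by 0.36 ± 0.089 (SE) on the log2 scale with methylparaben (95% interval -0.53 to -0.18, limma adjusted p = 0.0355).
Mrps18a (ENSMUSG00000023967, GRCm38 chromosome 17, 46110986 to 46128910, plus strand) encodes a paralog of bacterial S18. Despite its name the protein sits in the large subunit, though the gene is counted with Mrps here. Its level ran from 14.4 to 28.7 in vehicle tumors (median 22.3), from 13.3 to 21.9 in methylparaben tumors (median 17.9) and from 12.6 to 26.9 in propylparaben tumors (median 19.5). All 20 methylparaben tumors lay below the vehicle median, although the ranges overlapped. Mrps18a fell by 0.30 ± 0.074 on the log2 scale with methylparaben (95% interval -0.44 to -0.15, limma adjusted p = 0.0374). Count tests on recovered reads called the same 2 members, edgeR with adjusted p = 0.0252 for Mrpl40 and 0.0212 for Mrps18a, and DESeq2 with 0.0162 and 0.0152. Over all genes edgeR called 3.86% and DESeq2 4.42%, more than the 2.67% that 2 of 75 members make.
The paralog Mrps18c had nearly equal medians, 25.8, 25.4 and 26.4 in vehicle, methylparaben and propylparaben tumors, and its difference with methylparaben was -0.09 ± 0.083. Mrps10, of the small subunit, differed by -0.30 ± 0.11 and did not pass (adjusted p = 0.0984). At the other end, Mrps28 (0.29 ± 0.23), Mrpl23 (0.13 ± 0.21) and Mrpl4 (0.05 ± 0.083) had the highest differences, and none of the 3 passed.

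Both calls rest on small margins. Neither member passed without the 7 low-component libraries (median of members -0.06, 58 of 75 below 0), with the mitosis score as covariate (median -0.04) or with the fibroblast score as covariate (median -0.04), and in these 3 fits 0% of all genes passed. Most of the 7 are vehicle tumors, and in those the mean log2 level of the members was 4.91 to 5.22. All of them lay above the vehicle median of 4.87. Leaving them out removes much of the high end of the vehicle group, so a smaller difference was partly built in. Neither member passed without each of vehicle replicates 1, 7, 8, 10, 14 and 19 and methylparaben replicates 6, 7 and 8 in turn. Mrpl40 was also lost without methylparaben replicates 3 or 5, and Mrps18a without methylparaben replicates 10, 11 or 15, with limma adjusted p up to 0.0784 over all these fits. The share of all genes that passed also moved with single libraries, from 0.0069% without vehicle replicate 8 to 6.44% without vehicle replicate 5, in place of 1.32%.

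**Figure D2:**
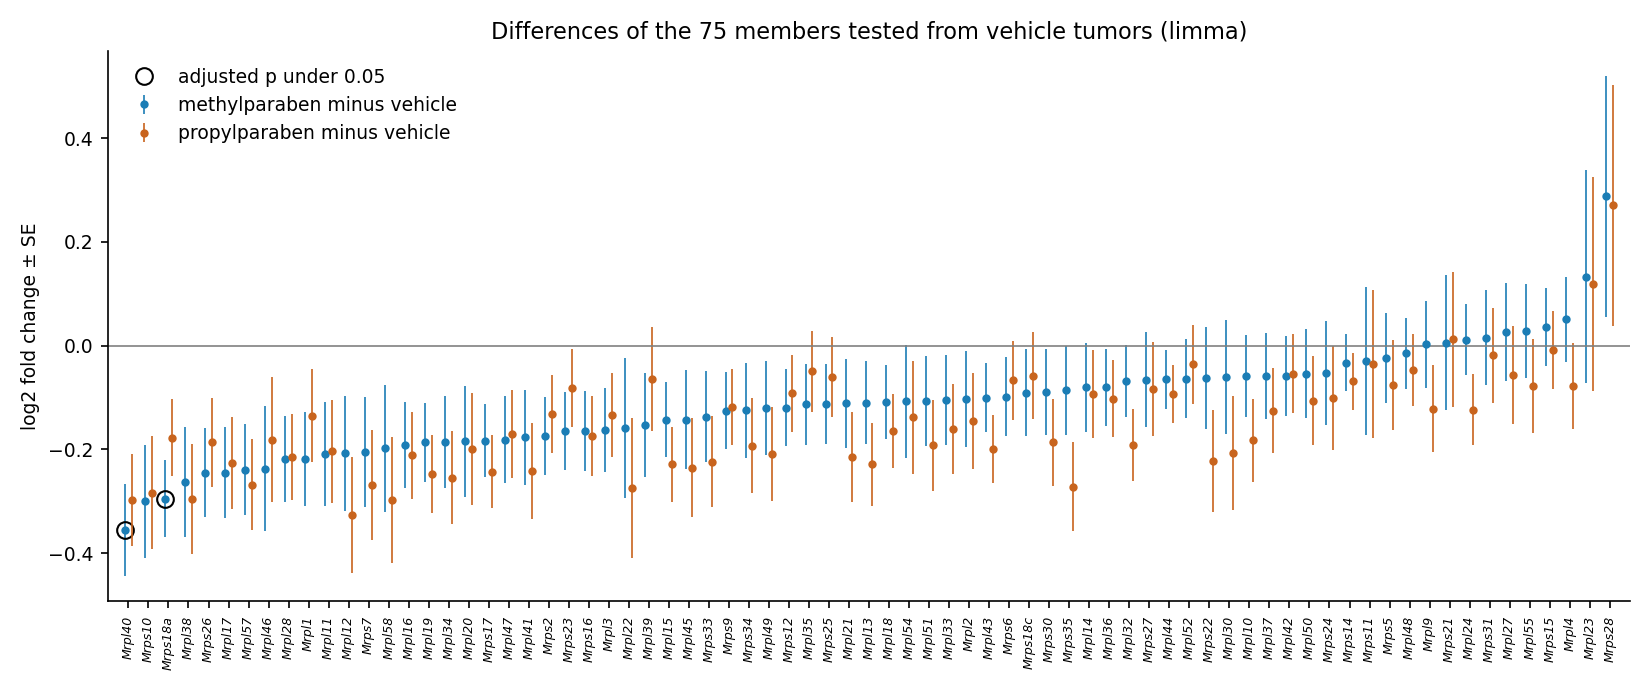
Log2 fold change with its SE (limma, 19 vehicle, 20 methylparaben and 20 propylparaben tumors) of the 75 members tested, ordered by the methylparaben difference, in blue for methylparaben and orange for propylparaben. Most points of both colors lie below 0, and rings mark Mrpl40 and Mrps18a, which passed with methylparaben.

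With propylparaben most members were also lower than in vehicle tumors, and none passed. The median log2 difference was -0.17 (all genes -0.00051), and 72 of 75 members lay below 0 (50.2% of all genes). By limma 0 of 75 members passed (0.0276% of all genes did), as by edgeR (0.145% of all genes) and DESeq2 (1.59%). At an unadjusted p under 0.05, 35 members were lower (9.49% of all genes) and 0 were higher. The 48 Mrpl genes had a median of -0.18 and the 27 Mrps genes of -0.10. This comparison shares the vehicle tumors with the one before, so the pair is not independent.

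Mrpl12 had the lowest difference with propylparaben. Its level ran from 46.3 to 147 in vehicle tumors (median 70.0), from 44.02 to 90.3 in methylparaben tumors (median 61.4) and from 36.4 to 102 in propylparaben tumors (median 55.6). The groups overlapped widely, 18 of 20 propylparaben tumors lay below the vehicle median, and the difference was -0.33 ± 0.11 (limma adjusted p = 0.116). Mrpl40 (-0.30 ± 0.089, adjusted p = 0.0841) and Mrpl58 (-0.30 ± 0.12, adjusted p = 0.179), which encodes a peptidyl-tRNA hydrolase that frees stalled chains, followed. The smallest limma adjusted p was 0.0811, of Mrps17, with -0.24 ± 0.070. Mrps28 (0.27 ± 0.23), Mrpl23 (0.12 ± 0.21) and Mrps21 (0.01 ± 0.13) were the 3 members above 0. Among fixed members, Mrpl41 stood at -0.24 ± 0.092, Mrpl11, part of the GTPase-associated center, at -0.20 ± 0.10, Mrps12 at -0.09 ± 0.074 and Mrps27 at -0.08 ± 0.091. With methylparaben these 4 stood at -0.18, -0.21, -0.12 and -0.07, and none of them passed in either comparison. Without vehicle replicate 5 there were 4 members below the limma threshold (2.93% of all genes) and without propylparaben replicate 1 there were 5 (2.202%). Without the 7 low-component libraries, most of which are vehicle tumors with a high mean of the members, the median was -0.11.

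Between the esters, which differ by the length of the alkyl group, no member passed by limma, edgeR or DESeq2. The median of propylparaben minus methylparaben was -0.03, 52 of 75 members lay below 0 (53.4% of all genes), and 0 passed (0% of all genes). At an unadjusted p under 0.05 there was 1 member (1.36% of all genes), Mrps35, with -0.19 ± 0.084 and a 95% interval of -0.35 to -0.02. Mrps22 (-0.16 ± 0.097) and Mrpl30 (-0.15 ± 0.11) followed, and Mrps18a (0.12 ± 0.073, interval -0.03 to 0.26), Mrpl39 (0.09 ± 0.099) and Mrpl1 (0.08 ± 0.089) were at the other end. For Mrpl40 the interval was -0.12 to 0.23. These intervals bound the difference per gene and do not show that the esters act alike.

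**Figure D3:**
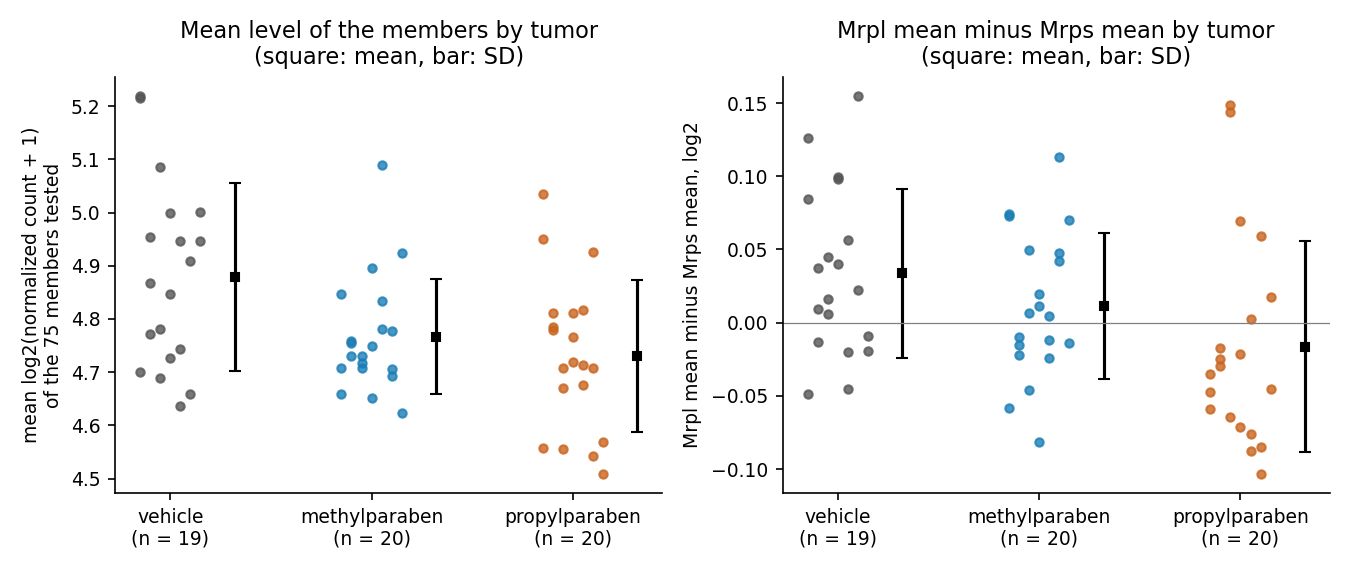
Left: mean log2(normalized count + 1) of the 75 members in each of 59 tumors. Right: mean of Mrpl minus mean of Mrps members in the same tumors; squares and bars are mean and SD. Vehicle tumors spread from 4.64 to 5.22, 17 of 20 tumors of each paraben group lie below the vehicle median of 4.87, and the groups overlap.

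The mean log2 level of all 75 members, given here without a test, was 4.88 ± 0.18 (SD, n = 19) in vehicle, 4.77 ± 0.11 (n = 20) in methylparaben and 4.73 ± 0.14 (n = 20) in propylparaben tumors. Vehicle tumors spread most, from 4.64 to 5.22 around a median of 4.87. In each paraben group 17 of 20 tumors lay below that median, and 1 methylparaben and 5 propylparaben tumors lay below every vehicle tumor. The highest methylparaben tumor was replicate 5, at 5.09. This rank depends on its low scaling factor of 0.83. As a share of reads on genes, the members made up 0.342% there and 0.377% in methylparaben replicate 14.

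Reads in introns of the same loci gave no call. Of the members, 63 had a mean intron value of at least 1. By limma 0 of 63 passed with methylparaben, with propylparaben or between the esters (0% of 14281 intron rows in each), with 1, 3 and 1 members lower at an unadjusted p under 0.05 (6.18%, 5.08% and 1.66% of rows). Medians were -0.07, -0.04 and 0.0062. The introns of Mrps18a differed by -0.33 ± 0.19 with methylparaben (limma adjusted p = 0.442), and those of Mrpl40 by 0.0046 ± 0.27 (adjusted p = 0.996). The intron differences had a median SE of 0.26, against 0.086 for the genes, and were thus less precise for most members. The 3 members lower at an unadjusted p with propylparaben were Mrpl11 (-0.93 ± 0.30, limma adjusted p = 0.205), Mrpl58 (-0.30 ± 0.11, adjusted p = 0.278) and Mrpl39 (-0.40 ± 0.20, adjusted p = 0.397).

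Other parts of mitochondrial translation also had small medians and no call by limma with either paraben. With methylparaben and propylparaben, 25 assembly factors of the mitoribosome had medians of -0.10 and -0.11, and 20 of 25 lay below 0 in each. Likewise 16 mitochondrial translation factors had -0.09 and -0.12, 17 mitochondrial tRNA synthetases -0.10 and -0.15, and 5 mitoribosomal proteins with other names -0.15 and -0.12. The 59 nuclear genes of the respiratory chain had -0.04 and -0.12, 7 tested mRNAs encoded by mitochondrial DNA had 0.02 and -0.17, and 75 cytosolic ribosomal protein genes had -0.13 and -0.18, again with 0 calls. The 7 are those of 13 mitochondrially encoded mRNAs that had a mean of at least 1. The rest lay under the minimum, for a reason that was not tested. Of the 75 cytosolic ribosomal protein genes, 70 and 74 lay below 0. At an unadjusted p under 0.05 by limma, 29 and 54 of them were lower (10.3% and 9.49% of all genes) and 0 were higher. For the 75 members these counts were 19 and 35, so the lower levels were not particular to the mitoribosome. Lists of growth and division had larger medians. The 15 nucleolar growth genes, which serve the making of cytosolic ribosomes, had -0.23 and -0.19, and with methylparaben Nop56 (-0.47 ± 0.13, adjusted p = 0.0456), a core protein of small nucleolar RNPs, and Gnl3 (-0.42 ± 0.11, adjusted p = 0.0355), nucleostemin, fell. The 20 mitosis genes had -0.47 and -0.38, and with methylparaben Ccna2 (-0.49 ± 0.13, adjusted p = 0.0456) and Ccnb1 (-0.63 ± 0.17, adjusted p = 0.0492), both cyclins, fell. These 4 calls rest on single libraries too. All 4 were lost without each of vehicle replicates 1, 2, 7, 8, 10, 14 and 19 and methylparaben replicates 2, 5, 6, 8, 11, 13 and 15 in turn. Of 59 such fits Gnl3 passed in 45, Nop56 in 37, Ccna2 in 35 and Ccnb1 in 20, with limma adjusted p up to 0.101, and all 4 differences stayed below 0. Fibroblast markers stood at 0.51 and 0.56 and epithelial ones at 0.06 and 0.04, with 0 calls. Their part in the difference of the members between groups was not tested beyond the covariate fits given above.

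Among tumors of the same group the members varied together, but loosely. With group means removed, the mean correlation over 2775 pairs of members was r = 0.26 across 59 tumors, 92.2% of pairs were above 0, and the mean over all genes tested was 0.0019. The same mean was 0.63 for cytosolic ribosomal protein genes and 0.58 for nuclear respiratory chain genes, which are read at higher levels. These means include methylparaben replicate 5, whose respiratory chain score was 7.61 against a median of 6.17 in its group. They were not computed without it, so how much of the 0.58 rests on that tumor was not tested. The mean was 0.26 within Mrpl, 0.26 within Mrps and 0.26 between them. The closest pair was Mrpl46 and Mrps25 (r = 0.72). Mrps11 and Mrpl46, whose 5′ ends overlap on chromosome 7 on opposite strands, had r = 0.29. Mrpl15 (0.80), Mrpl20 (0.78) and Mrpl17 (0.77) followed the mean of the other members most closely, and Mrpl23 (-0.13), Mrpl48 (0.06) and Mrpl24 (0.14) least.
Outside the members, the 10 genes whose levels were most like the members' mean were Phb2 (r = 0.86), Psma6 (0.83), Atp5f1 (0.81), Polr1d, Ndufc2, Glrx3, Atp5e, Cox7b, Bex1 and Hint1 (0.78). Phb2 encodes prohibitin 2, a scaffold protein of the inner mitochondrial membrane, Psma6 a proteasome subunit, and Atp5f1, Atp5e, Ndufc2 and Cox7b subunits of ATP synthase and the respiratory chain. For Phb2 the value was 0.90, 0.81 and 0.83 within vehicle, methylparaben and propylparaben tumors, and 0.84 without the 2 tumors farthest from the median. All these points share libraries and depth.

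Slopes of each member on 5 scores, each the mean log2 level of a list without members, describe what they varied with. Slopes were fitted by limma over all genes with group means removed and are in log2 units of the gene per log2 unit of the score. With the nuclear respiratory chain score, 45 of 75 members rose (6.1% of all genes did) and 0 fell (3.44%), with a median slope of 0.47 against -0.02 for all genes. Mrpl30 had the steepest slope (1.05 ± 0.15), then Mrpl20 (0.96 ± 0.15), and Mrpl40 had 0.01 ± 0.16. With the score of mitochondrially encoded mRNA, which rests on 7 of 13 such mRNAs, 20 members rose (4.89%) and 0 fell (3.58%), with a median of 0.19. In plain CPM that count was 11 of 77 (2.83% of all genes), and without the 5 libraries with a scaling factor under 0.9 it was 8 of 75 (6.18%).
With the mitosis score, 39 members rose (18.2% of all genes) and 1 fell (20.9%), with a median slope of 0.19. Mrps28 (0.56 ± 0.20), Mrps22 (0.40 ± 0.072), Mrpl46 (0.39 ± 0.095) and Mrpl17 (0.39 ± 0.062) were steepest. Mrpl48 fell with the score (-0.15 ± 0.058, limma adjusted p = 0.0312), while Mrpl23 (-0.36 ± 0.18), Mrpl33 (-0.02 ± 0.078) and Mrpl24 (0.02 ± 0.061) did not pass. With the nucleolar growth score 35 members rose (16.3%) and 0 fell (18.2%). With the fibroblast score 44 members fell (14.7%) and 0 rose (17.4%), Mrpl20 most steeply (-0.33 ± 0.057). By gene name, 24 of 48 Mrpl and 15 of 27 Mrps genes rose with mitosis, and 28 of 48 and 16 of 27 fell with the fibroblast score.
The counts for the dividing and growing state rest partly on the 7 low-component libraries, which lie at the high end of the mitosis score. Leaving these libraries out shortens the range of that score, so some loss of calls was built in. Without them 10 members rose with mitosis (9.13% of all genes) and 6 with nucleolar growth (7.11%), so these shares came near those of all genes. By contrast 32 rose with the respiratory chain score (5.83%) and 31 fell with the fibroblast score (8.84%).

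**Figure D4:**
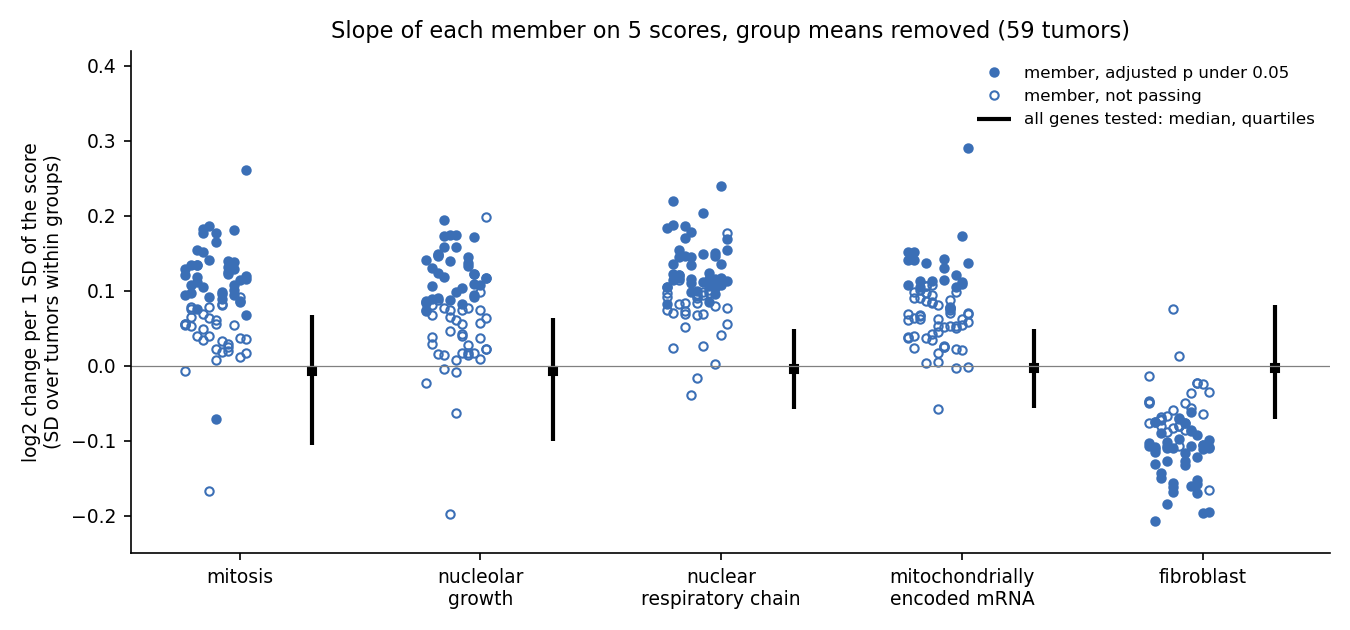
Slope of each of the 75 members on 5 scores, multiplied by the SD of the score within groups, so the vertical axis is the log2 change of the gene per SD of the score. Filled dots passed (limma, adjusted p under 0.05), open dots did not, and black bars give median and quartiles of all genes tested; most members lie above 0 for 4 scores and below 0 for the fibroblast score.

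One tumor changes these slopes. Methylparaben replicate 5 had the lowest mitosis score of its group (4.001) and the highest respiratory chain (7.61) and mitochondrially encoded mRNA scores (11.7), beside its muscle and fat markers. Without it 56 members rose with the respiratory chain score (14.2% of all genes, in place of 6.1%), and the median slope was 0.95 in place of 0.47. Likewise 54 rose with mitosis (18.7% of all genes) and 44 with nucleolar growth (16.9%). With all libraries, slopes on the respiratory chain score differed between methylparaben and vehicle tumors for 20 members (18% of all genes) and between propylparaben and methylparaben tumors for 12 (11.8%). On the mitosis score the first difference held for 1 member, Mrps35 (1.66% of all genes), and on the mitochondrially encoded mRNA score for 1, Mrpl1 (6.95%). For propylparaben against vehicle no member differed on the respiratory chain (0.0069% of all genes) or the fibroblast score (0.0207%), nor did any between the esters on mitochondrially encoded mRNA (1.79%). Without methylparaben replicate 5 the counts of 20, 12, 1 and 1 were all 0, and 0% of all genes differed in each of these fits.

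Mrps28 (ENSMUSG00000040269, GRCm38 chromosome 3, 8802146 to 8923918, minus strand), of the small subunit, varied unlike the other members. Its SD over tumors was 0.75 on the log2 scale, while the median of 71 members with a mean of at least 10 was 0.27. The next were Mrpl58 (0.40) and Mrpl46 (0.38), and the steadiest were Mrps14 (0.16), Mrpl44 (0.17) and Mrpl48 (0.20). Mrps28 ranged from 1.58 to 50.1 in vehicle tumors (median 31.1), from 11.7 to 57.5 in methylparaben tumors (median 27.5) and from 10.9 to 53.4 in propylparaben tumors (median 29.9). In 14 tumors it lay between 1.58 and 17.4, and in the other 45 between 23.2 and 57.5, with a gap in between. The 14 were 7 vehicle, 2 methylparaben and 5 propylparaben tumors, and this cut at 20 was chosen after the values were seen. Except for vehicle replicate 6 (tumor 42), the 14 had tumor numbers from 132 to 287, while the other 45 ran from 1 to 311. The labels do not say what the order of the numbers stands for, and a link with it was not tested.
Of all genes, Tmem128 (r = 0.93), Ost4 (0.92), Sdhd (0.90), Snrpf (0.90) and Gramd4 (0.89) followed Mrps28 most closely, with group means removed. Ost4 encodes a subunit of the oligosaccharyltransferase, Sdhd a subunit of succinate dehydrogenase and Snrpf a spliceosomal core protein. The mean of these 5 genes lay between 2.72 and 4.84 (log2) in the 14 tumors and between 5.05 and 6.33 in the others, although they were picked for their likeness and the split is no test. Mrps28 with the mean of the other members had r = 0.28, with the share of reads outside features -0.18 and with reads on genes -0.17. Its introns did not follow it (r = -0.07), with a median of 78.9 in the 14 tumors and 76.3 in the other 45. Among members, Mrpl27 (0.67) and Mrps14 (0.52) came next in correlation with the mean of the 5 genes. With that mean as covariate, 3 members passed with methylparaben and 3 with propylparaben, where 7.11% and 2.64% of all genes passed.

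**Figure D5:**
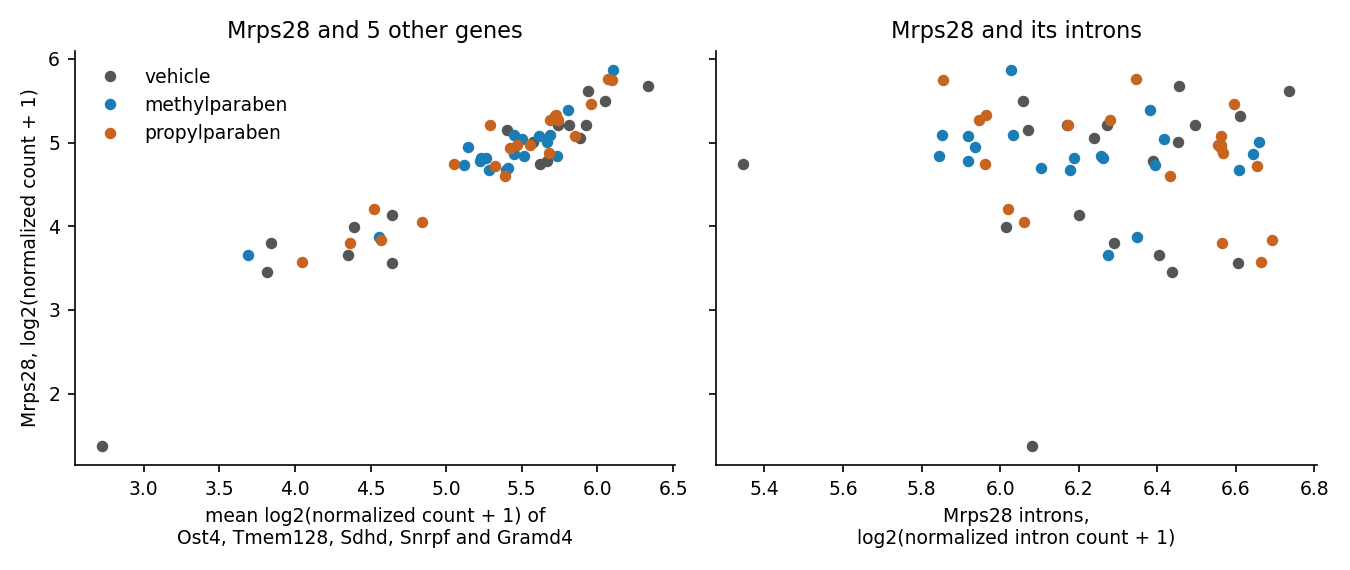
Level of Mrps28 in 59 tumors against the mean level of 5 other genes (left) and against its own intron level (right), all as log2(value + 1), with color for treatment. On the left 14 tumors form a lower range from all 3 groups; on the right no such relation is seen (r = -0.07).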

How the data were processed

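Total RNA of 59 flash-frozen mammary tumors was sequenced. Per the submitters' processing notes, bcl2fastq 2.20.0.422, STAR 2.6.1d, HTSeq 0.10.0 and GRCm38 were used. No label or header names the annotation, strand setting, intron definition or normalization tool. The authors deposited normalized counts, a signal, for genes with 5 HTSeq summary lines and, in another table, for introns. The gene values equal CPM scaled by trimmed-mean factors, and whole reads were recovered (100% within 1e-06). Summary lines were kept out of tests: reads outside features were 13.7 to 35.5% of a library, multiply aligned 10.95 to 15.8% and ambiguous 0.65 to 0.84%.

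Groups came from the treatment label. Values were fitted as log2(value + 1) with limma 3.58.1 (trend, R 4.3.3) over all genes with a mean of at least 1, all 59 libraries and 1 mean per group. A call is an adjusted p under 0.05. Fold changes on this scale understate the change of low genes. Alternatives used edgeR 4.0.16 (quasi-likelihood) and DESeq2 1.42.0 on recovered reads, other scalings, filters and pseudocounts, covariates and left-out libraries. The limma fit was tested on simulated data with known changes between methylparaben and vehicle, 50 genes per size of change. It called 13 of 50 at 1.25-fold, 29 at 1.5-fold, 49 at 2-fold and 47 at 3-fold. Changes near 1.25-fold were thus mostly missed, and a member that did not pass may still differ. GENCODE M21 gave exons for 55240 identifiers.

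Members and lists were chosen with earlier results of these data known. Named genes were members that passed, the 3 highest and 3 lowest differences per comparison, the 4 highest and lowest levels per kilobase, the 3 largest and smallest SDs, the 4 highest and lowest mitosis slopes, 10 fixed members (among them the paralogs Mrps18a, Mrps18b and Mrps18c), the 10 genes most like the members' mean, and list genes that passed. Further genes named, such as neighbors and partners of Mrps28, were chosen after their values were seen. The differences of slopes between groups, the fits without 7 or 5 libraries, the refits of slopes and list genes without single libraries, and the fits with the mitosis, fibroblast or 5-gene score or the share of reads outside features as covariate were also added after seeing the data.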

Additional observations from a re-analysis of the deposited data

Results flagged for a closer look

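Slopes of members on 2 kinds of mitochondrial score and on mitosis differed between groups by a test of the interaction of score and group (limma over all genes). For the nuclear respiratory chain score, 20 of 75 members differed between methylparaben and vehicle tumors and 12 between propylparaben and methylparaben tumors. For the mitosis score it was 1 member, Mrps35 (difference -0.62, limma adjusted p = 0.0290), and for mitochondrially encoded mRNA it was 1, Mrpl1 (difference -0.69, adjusted p = 0.0166), both between methylparaben and vehicle. Without methylparaben replicate 5 each of these counts was 0 (0% of all genes in each fit). In the order given they were 8, 8, 0 and 1 without the 7 low-component libraries, where 8.75%, 7.38%, 0.0138% and 4.96% of all genes differed. With all libraries these shares were 18%, 11.8%, 1.66% and 6.95%.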

How the results depend on the processing

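Pseudocounts of 0.5 and 10, plain CPM, median-of-ratios scaling, quantile normalization, a mean of at least 10, edgeR, DESeq2 and the share of reads outside features as covariate left 2 members called with methylparaben and 0 with propylparaben. Over all genes, however, edgeR called 559 (3.86%) and 21 (0.145%), and DESeq2 640 (4.42%) and 231 (1.59%). The counts by limma were 191 (1.32%) and 4 (0.0276%). The methylparaben count was 0 with no filter, only the 2 groups compared, 6 tissue scores as covariates, without 5 libraries with a low scaling factor (vehicle replicates 1 and 2, methylparaben replicates 1, 5 and 16), without the 7 low-component libraries, and with the mitosis or the fibroblast score as covariate. In the last 3 of these fits 0% of all genes passed. For the other limma settings named so far the share of all genes is not given, so their counts are no result particular to the members. With the mean of the 5 genes whose levels followed Mrps28 most closely as covariate, the count was 3 with each paraben. The shares of all genes in that fit are given above with Mrps28. Leaving out each library gave 0 to 2 members with methylparaben (median -0.13 to -0.09, with 0.0069% to 6.44% of all genes passing) and 0 to 5 with propylparaben (median -0.18 to -0.14, with 0.0069% to 2.93%). The cause was not tested. Medians of all genes moved by less than 0.1 under each scaling.

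Differences near 0 turned sign without passing. Mrps21 with methylparaben was -0.0017 with a pseudocount of 10, -0.013 in plain CPM, -0.046 with quantile normalization, -0.0025 by edgeR, -0.046 without the 7 libraries and -0.013 with the 5-gene mean; with propylparaben it was -0.00049 (pseudocount 10), -0.019 (quantile), -0.0016 (edgeR), -0.047 (7 libraries) and -0.0062 (5-gene mean). Mrpl4 with methylparaben was -0.018 without the 5 libraries, and Mrpl23 was -0.033 and -0.014 with the mitosis score as covariate.

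Slope counts differed between subsets of tumors, as did the shares over all genes. In vehicle, methylparaben and propylparaben tumors alone, members passing were 27, 0 and 20 for mitosis (9.95%, 2.26% and 8.47% of all genes), 15, 0 and 16 for nucleolar growth (8.03%, 0.207% and 5.63%), 29, 10 and 24 for the respiratory chain (5.63%, 6.25% and 5.11%), 1, 7 and 1 for mitochondrially encoded mRNA (1.23%, 5.65% and 1.18%) and 22, 0 and 16 for the fibroblast score (7.52%, 0.214% and 5.43%). Without the 7 libraries they were 10 and 6 for mitosis and nucleolar growth (9.13% and 7.11%); the mitochondrially encoded mRNA count was 11 in plain CPM (2.83%) and 8 without the 5 libraries (6.18%). Leaving out each library gave 32 to 54 (mitosis; 16.2% to 18.7% of all genes), 28 to 44 (nucleolar growth; 14.1% to 16.9%), 40 to 56 (respiratory chain; 5.75% to 14.2%), 15 to 24 (mitochondrially encoded mRNA; 4.58% to 7.30%) and 37 to 47 (fibroblast; 12.6% to 15.7%). Intron counts were 0 throughout. No paired analysis was possible because nothing in the labels ties tumors of different groups to each other.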
